A study of Homo sapiens with 2 samples.

Results

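First intron peaks of coding transcripts are the m6A peaks that the deposited annotation placed in intron 1 of a protein-coding RefSeq transcript. They numbered 3091 of 39801 peaks (7.77%) and lay in 1565 host genes, a host being the gene whose transcript the intron label names. N6-methyladenosine (m6A) is a methyl mark on adenosine inside RNA, and m6A-RIP recovers fragmented RNA with an antibody against it and compares the yield with input RNA. The study sequenced 1 m6A-RIP library and 1 input library of HCCLM3, an established human hepatocellular carcinoma line with high metastatic capacity. Both came from cells labelled as wild-type in genotype, with no treatment named, and both were made from total RNA with a stranded kit for small inputs. There was no replicate, so every value describes these libraries, no comparison has a replicate check, and no test was made.

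The first intron follows the first exon and is often the longest intron of a gene. It is removed from the precursor RNA during splicing, so reads from it come from unspliced RNA, a retained intron, or another transcript of the same place. The mark is written in the nucleus, mostly while RNA is being made, by the METTL3 and METTL14 complex, which favours a short motif around a GGAC core. In mature mRNA it is best known from long internal exons, the region of the stop codon and the 3′ UTR. A promoter label takes precedence in the deposited annotation and reaches 3 kb to either side of a transcript start in it. The opening stretch of first introns, as that annotation places them, is thus outside this set. By its starts, the member closest to a transcript start was 3013 bases from it. Starts in the RefSeq release used for the sequences below can lie closer.

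Sequence could be shown where a first intron peak ran into the window in front of a RefSeq gene start (250 bases before to 50 after it). There were 6 such windows, and 3 of them lay under a peak with q under 1e-05; they are shown because they are the strong peaks for which bases could be read. The part upstream of the start that the peak covered is given 5′ to 3′ on the strand of the gene that starts there, from RefSeq on GRCh38.p14, with the core GGAC and its reverse complement GTCC in capitals.
LOC124904182: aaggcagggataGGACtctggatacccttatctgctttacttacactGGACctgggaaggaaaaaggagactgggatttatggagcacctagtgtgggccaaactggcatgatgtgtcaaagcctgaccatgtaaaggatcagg
LOC102725180: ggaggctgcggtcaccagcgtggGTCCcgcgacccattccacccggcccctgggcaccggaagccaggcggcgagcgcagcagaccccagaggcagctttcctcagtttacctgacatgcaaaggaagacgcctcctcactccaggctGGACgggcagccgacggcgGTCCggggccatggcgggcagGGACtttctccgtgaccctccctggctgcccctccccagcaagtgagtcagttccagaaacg
TRPC1: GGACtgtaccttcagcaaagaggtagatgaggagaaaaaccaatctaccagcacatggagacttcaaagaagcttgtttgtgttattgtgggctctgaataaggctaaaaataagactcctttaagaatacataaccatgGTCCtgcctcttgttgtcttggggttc
The stretch of LOC124904182, a long non-coding RNA gene, covers chr1:54790591-54790734 on the plus strand, inside the first intron of TTC22, a tetratricopeptide repeat protein gene on the minus strand. Its peak had fold 7.70 (95% interval 4.56 to 12.4) on 14 RIP fragments. The summit lay 63 bases past the start of LOC124904182, outside the stretch shown. The stretch of LOC102725180, also a long non-coding RNA gene, covers chr19:1168583-1168832 on the plus strand, inside the first intron of SBNO2, a minus-strand gene for a helicase-like coregulator. Its peak had fold 4.76 (3.29 to 6.69) on 30 fragments. The summit lay 63 bases before the start of LOC102725180, inside the stretch shown. The stretch of TRPC1, a cation channel gene, covers chr3:142734025-142734191 on the plus strand, upstream of an internal start 10.2 kb from the outermost start of the gene. Its peak had fold 9.23 (7.03 to 11.9) on 56 fragments, with the summit 280 bases past the internal start. GGAC occurred 2 times in the TTC22 stretch, 2 times in the SBNO2 stretch and 1 time in the TRPC1 stretch on the strand shown, and GTCC occurred 0, 2 and 1 times. Of all 35116 RefSeq start windows cut to the same lengths, 41.1% held GGAC at 144 bases, 59.0% at 250 bases and 45.8% at 167 bases. GGAC or GTCC was present in 64.6%, 82.0% and 69.9%, so the motif is common in stretches of these lengths. The table gives no strand for a peak, and in TTC22 and SBNO2 the RNA could come from either gene.

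The authors' fold is the RIP level at the summit over the local input level, after 1 is added to each. The fold of first intron peaks had a median of 2.90 (quartiles 2.35 to 4.02; 95% interval of the median 2.86 to 3.06). It ran from 1.55 in GNB1, a G protein beta subunit gene, to 21.9 in VPS26C, a subunit of an endosomal recycling complex. The fragments behind these folds were few: a median of 6 RIP fragments (quartiles 3 to 12) over an input level of 0.296. Peaks on 3 or fewer fragments made up 30.5% (944), and peaks on 30 or more made up 4.76% (147). The commonest pair of values, a fold of 2.35 on 3 fragments over an input of 0.246, was shared by 460 peaks (14.9%). The median width was 345 bases.

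**Figure D1:**
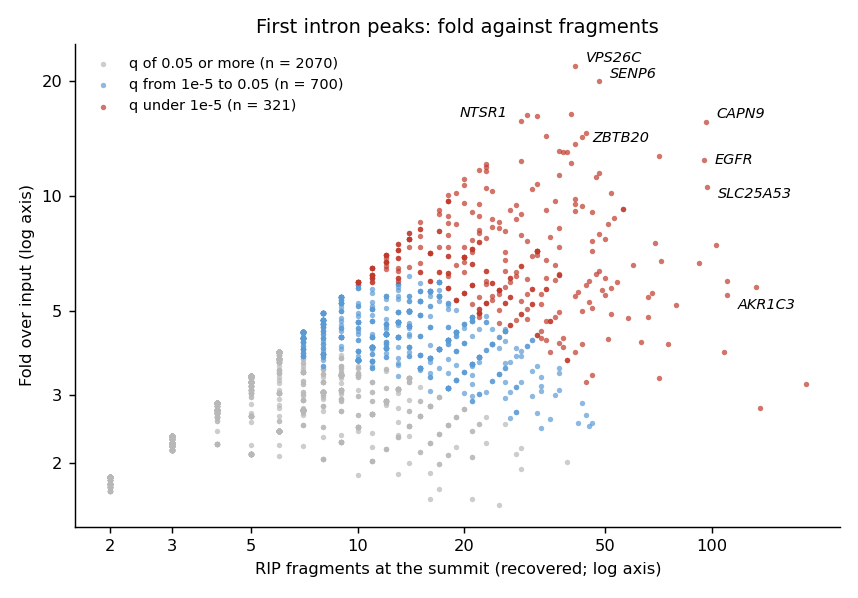
Fold over input (vertical, log axis) against the number of RIP fragments recovered at the summit (horizontal, log axis) for 3091 first intron peaks, coloured by the q-value of the authors' caller. The 321 peaks with q under 1e-05 fill the upper right, VPS26C has the highest fold at 21.9, and peaks on few fragments fall on a small number of repeated values.

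Of the first intron peaks, 1021 (33.0%, 95% Wilson interval 31.4 to 34.7) had q under 0.05, against a background of 48.8% of all peaks. At q under 1e-05 there were 321 (10.4%, 9.36 to 11.5), against a background of 25.8%. A fold of at least 10 was reached by 35 (1.13%, 0.815 to 1.57), against a background of 1.92%. The caller gave q = 1 to 1115 (36.1%). First intron peaks thus passed each threshold less often than the list as a whole, in these libraries.

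The shares were close to those of other introns and far from those of exons. Peaks in middle introns passed q of 0.05 in 32.7% (8955 peaks) and those in last introns in 33.4% (943 peaks). Exon peaks passed in 69.9% and 3′ UTR peaks in 78.6%. At q under 1e-05 middle introns had 10.9% and last introns 12.1%, both with intervals that overlap that of first introns. The median fold was 2.86 in middle introns, 3.05 in last introns, 3.80 in exons, 4.12 in 3′ UTRs and 2.86 in intergenic peaks. Exon peaks rested on a median of 23 fragments and 3′ UTR peaks on 32, so depth moved with the region. Whether depth accounts for the lower share in introns was not tested.

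**Figure D2:**
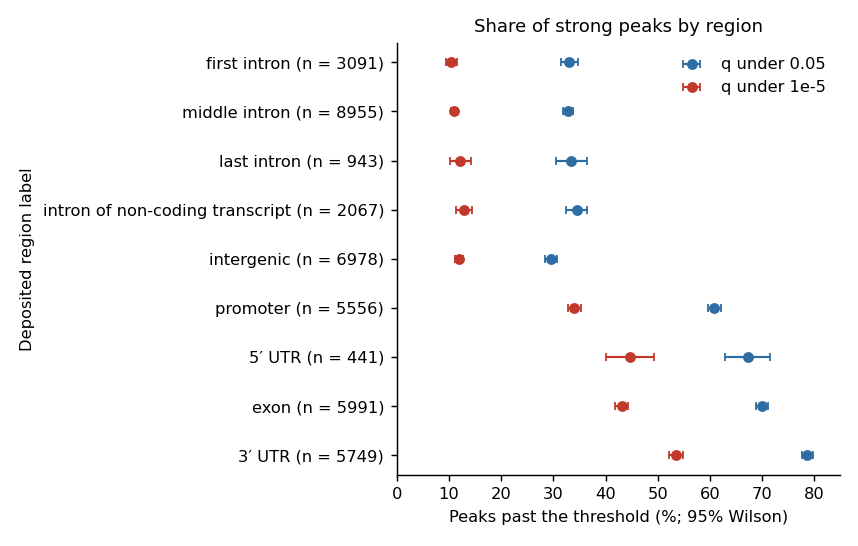
Share of peaks with q under 0.05 (blue) and under 1e-05 (red) for each deposited region label, with 95% Wilson intervals; n is the number of peaks. First introns, at 33.0% and 10.4%, lie beside the other intron classes and intergenic peaks, and exons and 3′ UTRs lie far to the right.

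When peaks of like fragment number were set side by side, first, middle and last introns had nearly the same fold. On 3 or fewer fragments the medians were 2.31, 2.35 and 2.35. On 4 to 9 fragments they were 3.17, 3.17 and 3.25, and on 10 to 29 fragments 4.27, 4.35 and 4.28. Exon, 3′ UTR and intergenic peaks had 2.35 each on 3 or fewer fragments and 3.25 each on 4 to 9. On 10 to 29 fragments they had 4.35, 4.18 and 4.67. The likeness on few fragments is thus not particular to introns. Fold is computed from fragments and input, which holds such values close together. On 30 or more fragments first introns had a median fold of 5.70 (5.26 to 6.18, 147 peaks) and middle introns 5.22 (4.95 to 5.46, 483 peaks). Last introns had 5.62 (4.82 to 6.69, 68 peaks), and these intervals overlap. Exon peaks on 30 or more fragments had 4.24 over a median input of 8, and first intron peaks had an input of 4. Among peaks with q under 1e-05, first introns had a median fold of 6.47 on 25 fragments and exons 5.25 on 49. The median input of these peaks was 1.48 in first introns and 5 in exons, and a q threshold asks for a higher fold where input is low. Middle introns (6.59), last introns (6.67) and intergenic peaks (6.71) past the same threshold had median folds near that of first introns.

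Intron 1 held 23.8% (23.0 to 24.5) of the 13002 peaks in introns of coding transcripts, middle introns 68.9% and last introns 7.25%. The share of first introns was 23.9% at q under 0.05, 22.7% (20.5 to 24.9) at q under 1e-05 and 26.3% (19.6 to 34.4; 35 of 133) at a fold of at least 10. These intervals overlap, so no shift of the share with peak strength was detectable at this depth. In 13 intron labels the intron number exceeded the number of introns, and these were put in no class. Transcripts with 1 intron, in which the first is also the last, held 101 of the first intron peaks.

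The 3050 peaks whose summit could be placed in the host gene lay at a median of 28.3 kb from its outermost RefSeq start (quartiles 12.2 to 61.5), with a range of 3.06 to 1217 kb. A labelled transcript can start inside its gene, so a first intron can lie far from the outermost start. Along the host gene the median summit was 22.7% of the span from the start, against 54.8% for middle and 83.2% for last introns. It was 23.1% for genes on the plus strand and 22.2% on the minus strand, so intron numbers followed the direction of transcription on both. When the gene was cut into 5 equal stretches from start to end, 44.9%, 32.6%, 14.98%, 6.26% and 1.31% of first intron peaks lay in them. That order follows in the main from the label itself.

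**Figure D3:**
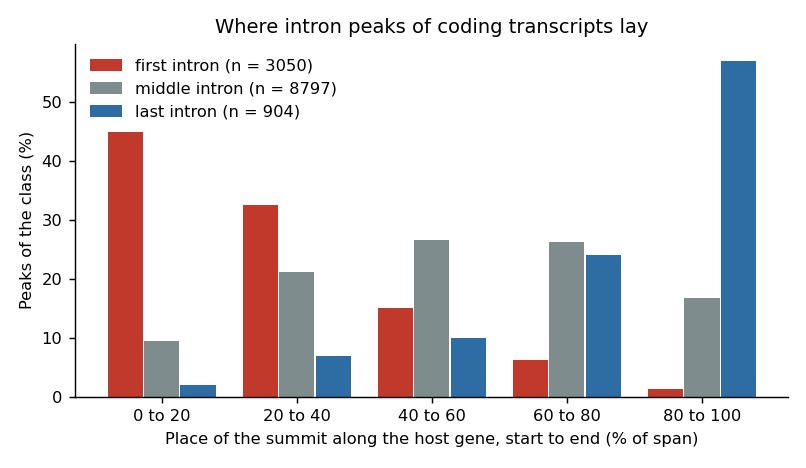
Share of peaks (vertical, percent of each class) by the place of the summit along the host gene in 5 equal stretches of its span (horizontal), for first, middle and last introns. First intron peaks fall from 44.9% in the opening stretch to 1.31% in the closing one; middle introns have no single dominant stretch and last introns pile up at the end.

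Within first introns, peak strength differed modestly with distance. From 3 to 10 kb of the start, 37.8% (34.0 to 41.7) of 601 peaks had q under 0.05. The share was 32.9% of 986 peaks from 10 to 30 kb, 31.1% (28.4 to 34.0) of 1066 from 30 to 100 kb and 32.2% of 397 beyond 100 kb. At q under 1e-05 the shares were 13.0% (10.5 to 15.9), 11.3%, 8.16% (6.66 to 9.96) and 10.1%. The nearest class thus had the highest share at both thresholds, with the interval at q under 1e-05 clear of that of the 30 to 100 kb class only. The input level was also highest there, with a median of 0.385 against 0.296 from 30 to 100 kb, and its part in the difference was not tested. Number of introns showed no trend: from 1 intron to over 20, the share with q under 0.05 stayed between 31.4% and 38.5%.

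The nearest annotated start was not always that of the outermost host transcript. It belonged to the host and lay upstream of the peak for 2327 peaks, of which 33.4% had q under 0.05. For 262 it belonged to the host but lay downstream, and 26.3% (21.4 to 32.0) of these had q under 0.05. For 502 it belonged to another gene, with 34.7% past that threshold. Another annotated gene lay over the summit of 286 first intron peaks (9.28%, 8.31 to 10.4), near the 9.17% of middle introns and below the 16.1% (13.9 to 18.6) of last introns. A long non-coding RNA gene was among them for 175 peaks, a pseudogene for 48 and another protein-coding gene for 76. No first intron peak lay over a miRNA hairpin (0 of the 3091 peaks).

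Of the 1565 hosts, 1560 were protein-coding, or 7.78% of the 20056 protein-coding genes of the RefSeq table. A single first intron peak was found in 919 hosts, 646 (41.3%) had more, and 19 hosts with at least 10 peaks held 258 peaks. Hosts were long genes, with a median span of 104 kb against 24.1 kb for all protein-coding genes. The share of protein-coding genes with a first intron peak was 0.487% under 20 kb, 5.94% from 20 to 50 kb, 14.5% from 50 to 100 kb and 23.9% from 100 to 200 kb. It was 26.4% (23.8 to 29.1) from 200 to 500 kb and 19.0% (15.1 to 23.7) over 500 kb. Peaks did not become stronger with span: 41.2% of 51 peaks in genes under 20 kb and 31.4% of 271 in genes over 500 kb had q under 0.05. The length of the intron itself was not used here.

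An exon or UTR peak was also present in 1076 hosts (68.8%, 66.4 to 71.0), against 32.9% of all protein-coding genes. Of the 265 hosts with a first intron peak at q under 1e-05, 180 (67.9%) had one. Exon peaks were counted by the gene in their label, and UTR peaks by a summit anywhere in the gene body. A longer body can hold more such summits, also those of overlapping genes. Hosts had a median span of 104 kb against 24.1 kb for all protein-coding genes, and the part of span was not tested. A peak can be called only where RNA is present, and expression was not measured separately, so the amount of RNA and the share cannot be told apart. A middle intron peak was also present in 751 hosts. In 310 of them the highest fold was in the first intron, in 410 in a middle intron, and in 31 the values were equal. The list holds 8955 middle intron peaks against 3091, and a highest value tends to rise with the number of peaks. The split was not adjusted for this. In 290 hosts (18.5%) no peak in another intron of a coding transcript and no exon or UTR peak was found. Promoter peaks and introns of non-coding transcripts were not looked at for this count.

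The highest fold, 21.9 (16.0 to 29.4), was that of VPS26C, on 41 RIP fragments over an input of 0.246, at chr21:37261041-37261904 and 6.79 kb from the gene start. SENP6, a protease that removes SUMO chains, followed with 19.97 (14.9 to 26.3) on 48 fragments at chr6:75608289-75608733. The intervals of these leading peaks overlap. ANKRD46 had 16.4, FAM53A 16.2 on 30 fragments, and EPB41L2, a membrane skeleton protein gene, 16.2 on 32 fragments. NTSR1, the neurotensin receptor, had 15.7 (10.8 to 22.2) on 29 fragments at 36.6 kb from its start. CAPN9, a calpain protease of the digestive tract, had 15.6 (12.7 to 19.1) on 96 fragments over an input of 3, the most fragments among these 10 peaks, and lay 4.17 kb from the start. TBC1D19 had 14.6, TTC28 14.3 and ZBTB20, a zinc-finger repressor active in liver, 14.3. Of these 10 peaks, those of VPS26C, FAM53A and NTSR1 stood over the lowest input, 0.246, where the added 1 holds the fold down most.

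By the authors' p-value the order was different. CAPN9 led with a −log10 p of 57.2. EGFR, the epidermal growth factor receptor, came next with 48.7, at fold 12.4 (10.1 to 15.1) on 95 fragments over an input of 4. Its peak at chr7:55095560-55096192 lay 76.9 kb into the gene. SLC25A53, a mitochondrial carrier family gene, had 45.4 at fold 10.5 (8.58 to 12.8) on 97 fragments, in a transcript with 1 intron. VPS26C, SENP6 and AHDC1, an AT-hook protein gene with fold 12.7 on 71 fragments, followed. AKR1C3, an aldo-keto reductase acting on steroids and prostaglandins, had 133 fragments at a fold of 5.76 (4.83 to 6.81) over an input of 14.0, and another gene, LOC107984198, lay over its summit. RAB7A, a small GTPase of late endosomes, had 7.45 on 103 fragments, and ARHGAP42 5.96 on 110. These 3 peaks combined a moderate fold with a small p, at places where both libraries held many fragments.

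All 35 peaks with a fold of at least 10 lay in different hosts, on 18 to 97 fragments. Their median distance from the start was 22.3 kb. Of them, 12 lay within 10 kb, as did 601 of all 3050 placed first intron peaks. The following were named after their values were seen. PRKCE, a protein kinase C gene, had 13.7 (9.94 to 18.3), ARHGEF11 13.1, and HIP1, an endocytic adaptor, 13.0. MAML2, a Notch coactivator, had 12.3 at 193 kb from its start and OSBPL10, an oxysterol-binding protein relative, 12.2 at 139 kb. GPR39, a zinc-sensing receptor, had 11.9 (7.81 to 17.5) in a 1-intron transcript. EXT1, an enzyme of heparan sulphate synthesis, had 11.3 at 218 kb. Of the 35 summits, 2 had another gene over them, the pseudogene CYCSP24 in PTPDC1 and HNF4A-AS1 in HNF4A. Over first intron peaks as a whole the share was 9.28%.

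EGFR held 5 first intron peaks. At 36.6, 43.1, 72.9 and 83.3 kb from the start their folds were 3.71, 2.74, 3.93 and 3.80, on 10, 7, 10 and 7 fragments, and at 76.9 kb the fold was 12.4 on 95. All but the 43.1 kb peak had q under 0.05. By the authors' fold, a single summit thus stood far above its neighbours in the same intron. Its interval, 10.1 to 15.1, does not reach their values. The neighbours stood over inputs of 0.444 to 1.01 against 4, where the added 1 lowers the fold more. Without the added 1 the fold was 15.2 at 76.9 kb and 10.1 at 83.3 kb, with the others lower. FTO, an m6A demethylase gene, held 4, with folds of 5.86 on 10 fragments at 54.8 kb and 2.16, 3.05 and 2.75 on 3 to 6 fragments; only the highest had q under 0.05. CRTC2, a coactivator of CREB, and YTHDF2, an m6A reader, which the study concerns, had no first intron peak.

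GRIP1, a scaffold protein that binds glutamate receptors, held most first intron peaks, 30, of which 11 had q under 0.05. Their folds ran from 1.996 to 7.34 with a median of 3.35, from 19.3 to 455 kb from the gene start. The highest lay at 258 kb, on 18 fragments. The 6 peaks beyond 390 kb belonged to the first intron of a shorter transcript with 22 introns. Of these, 5 rested on 3 fragments each, and the peak at 449 kb had fold 5.95 on 10.

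PDE4D, a phosphodiesterase that degrades cAMP, held 21 first intron peaks, labelled to 5 transcripts, with 8 at q under 0.05. From 62.2 to 219 kb lay 6 peaks, the highest 5.44 on 9 fragments. The others lay from 731 to 1217 kb, in first introns of transcripts that start deep inside the gene. The 4 peaks at q under 1e-05 were all there, with 9.09 at 1071 kb, 6.63 at 1168 kb, 6.42 at 1187 kb and 6.97 at 1217 kb. These rested on 21, 21, 12 and 18 fragments.

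MAGI2, a membrane scaffold protein, held 18, with 14 at q under 0.05. Its highest fold was 13.0 (9.37 to 17.7) on 38 fragments at 215 kb. The others lay between 2.35 and 5.09, so by the authors' fold the peak at 215 kb stood alone as the EGFR peak did. ZBTB20 held 16, in separate clusters: 10 from 12.7 to 156 kb and 6 from 529 to 616 kb. The far cluster held the peak of fold 14.3 at 603 kb on 43 fragments and peaks of 4.71 on 34 and 4.69 on 35 fragments. In the near cluster every peak had 12 or fewer fragments over an input of 0.246 to 0.296. Without the added 1 the order changed, with 31.3 on 12 fragments at 124 kb and 27.6 at 603 kb. NKAIN3, a membrane protein that binds the sodium pump, also held 16, none above a fold of 4.73 and none at q under 1e-05.

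**Figure D4:**
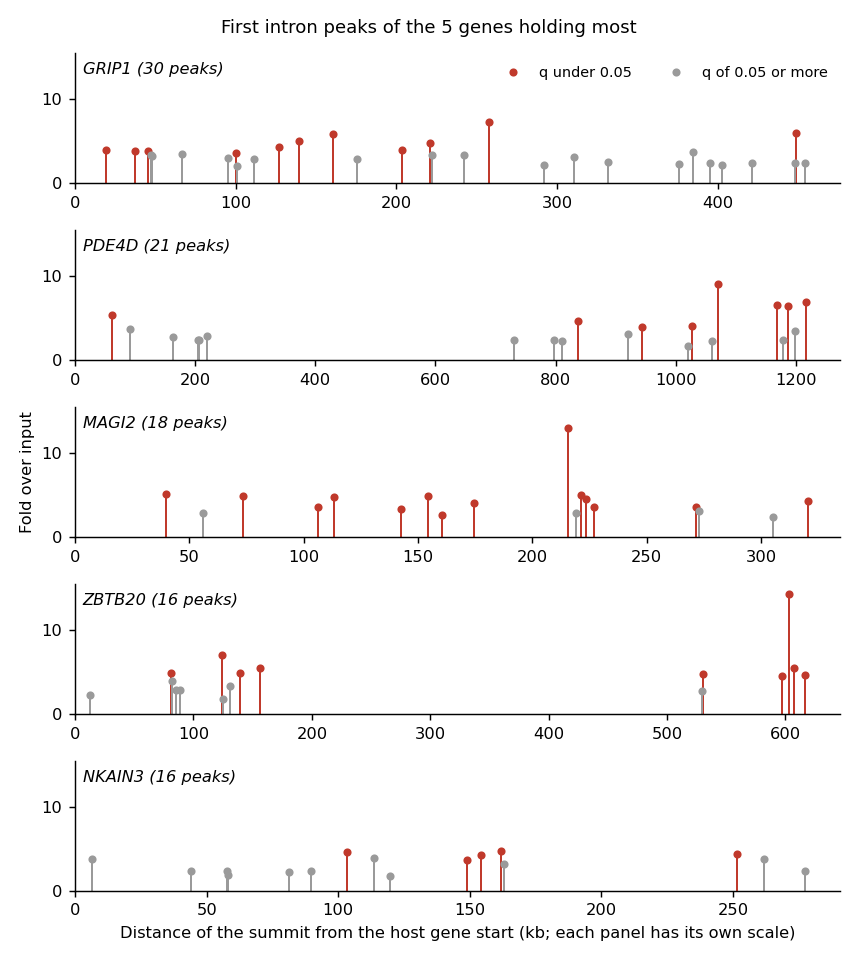
Fold over input (vertical) of each first intron peak against its distance from the outermost start of the host gene (horizontal, kb, a scale per panel) for the 5 genes that held most; red marks q under 0.05. MAGI2 and ZBTB20 each have 1 peak, of 13.0 and 14.3, above the others, GRIP1 peaks are spread from 19.3 to 455 kb, and no NKAIN3 peak exceeds 4.73.

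Peaks could also be packed tightly. The genes here were chosen after their values were seen, as those with at least 7 first intron summits within 25 kb, and the closest-packed of those with 6. FAF1, a ubiquitin-binding protein gene, had all 12 of its first intron peaks within 24.1 kb, from 50.8 to 74.9 kb. Their folds were 1.72 to 10.7, and 3 had q under 0.05. DHRS4L1, a short-chain dehydrogenase family gene with near-identical relatives, had 9 within 20.8 kb; how reads were shared among copies was not examined, so these are uncertain. DHRS7B had 8 within 7.14 kb, with folds of 1.72 to 4.35. MAGI3, a membrane scaffold protein gene, had 8 within 24.7 kb, on 3 to 15 fragments and with 5 at q under 0.05. MAPK8, the kinase JNK1, had 7 within 12.5 kb and ZNF710 had 7 within 24.0 kb, each with 1 at q under 0.05. RNF128, an E3 ubiquitin ligase, had 6 within 7.45 kb on 9 to 37 fragments, 4 of them at q under 0.05, and SAMTOR, a sensor of S-adenosylmethionine, had 6 within 6.35 kb on 3 to 4 fragments, 0 of them at q under 0.05. Peaks within 1 kb of the preceding one in the same host numbered 156 in all.

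Gene lists were read against the 7.78% of all protein-coding genes. The lists were chosen with earlier results of these data known, so their shares are described only. In the union of 20 lists, 126 of 562 genes had a first intron peak. At q under 0.05 the share of all protein-coding genes was 3.47%, and at q under 1e-05 it was 1.32%. Of 11 m6A writer genes, 2 had a first intron peak (18.2%, 5.14 to 47.7), VIRMA with fold 2.75 on 7 fragments and ZC3H13 with 2.26 on 3, and 0 had one at q under 0.05. Of 16 eraser and reader genes, 2 did (12.5%, 3.498 to 36.0), FTO and HNRNPC, a nuclear RNA-binding protein, with 2.66 (1.96 to 3.54) on 44 fragments.

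In the list of EGFR, MAPK and PI3K genes 14 of 41 (34.1%, 21.6 to 49.5) had a first intron peak, 6 at q under 0.05. The median best fold was 3.38, the same as over all hosts (3.38). That is a repeated value of peaks on 5 fragments over an input of 0.246, so the match says little. After EGFR, SOS1, a Ras exchange factor, had 6.23 (4.63 to 8.22) on 47 fragments and PTPN11, the phosphatase SHP2, had 4.99 on 14. Among CREB coactivators and regulators the count was 6 of 19, led by PRKACB, a catalytic subunit of protein kinase A, with 6.98 (3.99 to 11.6) on 12 fragments. The other named CREB list genes were PPP3CA, the calcineurin catalytic subunit, with 5.76 and PRKAR1B, a protein kinase A regulatory subunit, with 4.67. Among phosphodiesterases, cyclases and AKAPs it was 8 of 31, led by AKAP13 with 9.49 (6.18 to 14.1), then PDE4D and PDE3B with 5.63. In the TGF-β and BMP list it was 10 of 24 (41.7%, 24.5 to 61.2), with 4 at q under 0.05 and 0 at q under 1e-05, a count of 0 that says little against a background of 1.32% in a list this short; the highest fold was 5.63 in BMPR2, a BMP receptor. In the Wnt list it was 8 of 34. RNF43, a ligase that removes Frizzled receptors, had 11.2 (8.34 to 14.8) on 47 fragments and ROR1, a receptor for WNT5A, 6.67 (5.40 to 8.15) on 92. In the Hippo list it was 8 of 26, with no fold above the 4.73 of TAOK3. Among kinases targeted by lenvatinib only FLT1 of 10 had one, with 2.35 on 3 fragments.

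Nuclear and neuronal lists had shares of 27.8% to 34.4%. Chromatin regulators had 14 of 48, 4 at q under 0.05: ASH1L with 5.84, SETD2 with 5.70 and KMT2E with 5.59 on 42 fragments, all histone methyltransferase family genes, led. Nuclear receptors and coregulators had 10 of 36, led by HNF4G with 11.7 (7.60 to 17.3) on 22 fragments and HNF4A with 11.5 (8.54 to 15.1) on 48. Transcription factors with long genes had 11 of 32 but 3 at q under 0.05, with ETV6 at 4.42 and BACH2 at 4.54 after ZBTB20. Neuronal adhesion and synaptic scaffold genes had 13 of 40 genes and 95 peaks. Most of these peaks lay in few genes: GRIP1 held 30, MAGI2 18, MAGI3 12, and MAGI1 and PTPRM 10 each. PLXNA2, a semaphorin receptor, had 7.72 on 50 fragments beside MAGI2 and GRIP1.

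Lists of tissue markers, driver genes and transition genes had intervals that included the background, and ribosomal protein genes lay under it. Hepatocyte markers had 2 of 35 (5.71%, 1.58 to 18.6), with HNF4A, a transcription factor of the hepatocyte programme, the higher in fold. Exon or UTR peaks were present in 10 of the 35 hepatocyte markers, 1 of 18 immune cell markers and 1 of 20 endothelial and stromal markers. The hepatocyte share, 28.6%, is not above the 32.9% of all protein-coding genes, and levels were not measured, so these peaks do not check the liver label. Immune markers had 0 of 18 with a first intron peak, and of endothelial and stromal markers RGS5 had one, 3.38 on 5 fragments. Liver cancer driver genes had 4 of 28, among them IL6ST at 5.63 and RPS6KA3 at 5.75. Epithelial-mesenchymal transition genes had 4 of 25, with CD44, a hyaluronan receptor, at 4.93. Cytosolic ribosomal protein genes had 0 of 56 (Wilson upper limit 6.42%). Their median span was 5.05 kb, and genes under 20 kb as a whole had 0.487%, so a count of 0 says little here.

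The lists differed widely in gene span. Median span was 5.05 kb for ribosomal protein genes, 11.1 kb for immune and 11.8 kb for hepatocyte markers, and 92.0 kb for EGFR, MAPK and PI3K, 87.0 kb for TGF-β, 299 kb for the long transcription factor genes and 946 kb for the neuronal list. Genes of 50 to 100 kb as a whole had 14.5% and those of 200 to 500 kb 26.4%, so the background of 7.78% is low for lists of long genes. Genes under 20 kb had 0.487%, so that background is high for lists of short genes. The part of span in these shares was not tested.

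**Figure D5:**
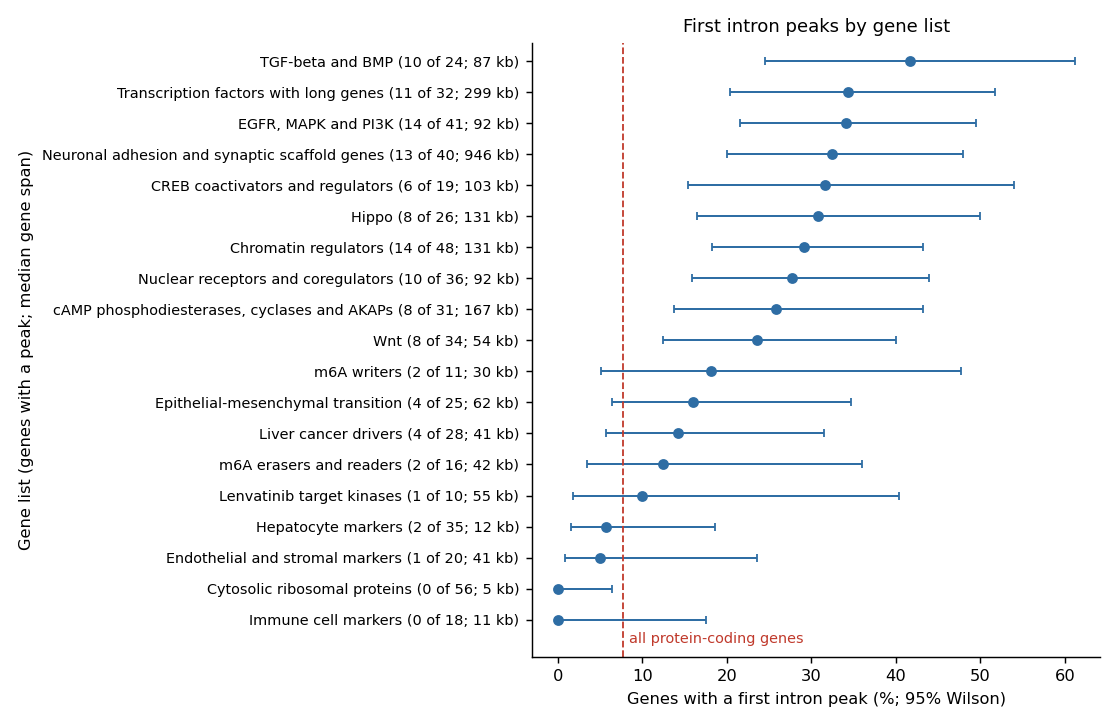
Share of genes in each of 19 lists with a first intron peak (points, percent, with 95% Wilson intervals); the labels give genes with a peak, list size and median gene span, and the dashed line marks the 7.78% of all protein-coding genes. The TGF-β list has the highest share, 41.7%, and ribosomal and immune lists of short genes lie at 0.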

How the data were processed

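A single m6A-RIP library and a single input library of HCCLM3 cells were combined by the authors into 1 annotated peak table. The submitters' processing notes name HISAT2, MACS2 and the build hg38; for versions and settings, the sources used here do not give them. Fold is a linear ratio of RIP over input, per the file headers. The deposited −log10 p-value and −log10 q-value columns had damaged headers and were identified from their values: 99.99% of the deposited scores are 10 times −log10 p. All are the authors' values per peak, used within this list only.

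Members are peaks whose deposited label names intron 1 of an NM transcript; the host is that label's gene. The members and gene lists were chosen with earlier results of these data known; 1 gene and 1 of the 20 lists are not reported here. RIP fragments and input level were recovered from fold and p as a Poisson tail (RIP scaled by 0.642, added 1); whole fragments met 100% of peaks within 0.001 on the −log10 p scale, with a single solution for 97.8% of members. On 2000 peaks simulated from the recovered values with the same formula and scale, 100% were recovered. That checks the inversion only, not whether the formula describes the real fragments. Total library depth is not stated in the file. Intervals are exact 95% Poisson on the fragments with input held fixed, 95% Wilson for shares and order-statistic for medians; they cover counting error only, and reads without molecular identifiers are not independent molecules.

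Spans, starts and window sequences came from RefSeq on GRCh38.p14; peak sequences elsewhere were not used here. Named by rule were the 10 peaks of highest fold and of lowest p, the 5 hosts holding most peaks, the leading genes by fold of each list (at most 3), the strongest peak of a 1-intron transcript, and EGFR, MAGI2, PDE4D, FTO, CRTC2 and YTHDF2. Alternatives were stricter q, at least 10 fragments, main chromosomes only, the nearest-start gene as host, merging within 1 kb, no added 1, and transcripts of at least 3 introns. Python 3.11.15, pandas 2.3.3, NumPy 2.4.6 and SciPy 1.17.1 were used.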

Additional observations from a re-analysis of the deposited data

How the results depend on the processing

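Of 59 alternatives to the main values, 30 stayed within the counting interval (counts within 1.5 times) and 29 moved. Peaks numbered 1021 at q under 0.05, 321 at q under 1e-05 and 989 on at least 10 fragments, in 697, 265 and 639 hosts, and the listed genes fell from 126 to 61, 21 and 61. In that order of settings the median fold was 4.63, 6.47 and 4.35, the distance from the start 26.1, 22.6 and 23.9 kb, the share of hosts with an exon or UTR peak under the same limit 62.7%, 52.5% and 65.4%, and that of hosts with several peaks 26.3%, 15.1% and 29.4%. Median fragments were 15 and 25 at the stricter q, and 82.0% of peaks on at least 10 fragments had q under 0.05. The share of intron 1 was 22.7% at q under 1e-05 and 22.6% for transcripts of at least 3 introns. With the nearest-start gene as host, the distance was 17.8 kb and the share with an exon or UTR peak 39.9%. The measures also changed in this setting. Distance was taken to the nearest start, and exon and UTR peaks were matched by their own nearest-start gene. These 2 values are therefore not like for like with the main ones. Without the added 1 the median fold was 7.82, and all 16 named peaks were higher. The ratio of median fold of first to middle introns (1.01) ranged from 0.980 to 1.01, so its direction is not firm. That of first to last (0.953) was at most 0.978 in the settings that kept the added 1. Without the added 1 both ratios were 1, since the medians were the same repeated value, 7.82, which says nothing on direction. From the ends of the median intervals, the reported ratio of first to last ran from 0.902 to 1.07, so its direction is not firm either. Fewer peaks by construction account for the falling counts; the cause of the other shifts was not tested. No paired analysis was possible because each group has 1 sample and no test was made. Peaks on few fragments limit every value.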
